A study of Mus musculus with 18 samples.

Results

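The DN2 and DN3 cells compared here are neighbouring stages of immature T cells sorted from the same mouse lymphomas, and the measurement is their RNA on Affymetrix arrays. The series holds 18 arrays in 6 groups of 3. The comparison takes 6 of them by their titles, the 3 arrays of DN3 lymphoma cells and the 3 arrays of DN2 lymphoma cells. Both groups come from Lck-Cre transgenic mice that were irradiated below the lethal dose and given bone marrow infected with an NPM-ALK retrovirus. The lymphomas grew in the thymus, and the mice were killed when moribund. NPM-ALK is a constitutively active fusion kinase that drives anaplastic large cell lymphoma (ALCL), a T cell lymphoma. The Lck promoter acts in thymocytes, and the labels place NPM-ALK expression in early T cells. The host was not lethally irradiated, so it keeps cells of its own, and a sorted fraction may hold them. The series design speaks of 3 lymphomas. Both groups carry replicate numbers 1 to 3, and the labels do not say in words that equal numbers are the same tumour. The description field of all 6 arrays speaks of aged wild-type mice given 4 Gy. This differs from the genotype field and the titles, and the titles were followed. The other groups are the CLP, DN1 and DN4 fractions of the lymphomas and healthy LSK stem and progenitor cells from mice 18 months old. The lymphoma fractions enter the model of the spread, and the LSK arrays only helped to choose 1 probe set per gene.

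In the normal thymus, double-negative (DN) thymocytes lack the CD4 and CD8 coreceptors and pass through stages that are told apart by CD44, KIT and CD25. DN2 cells carry all 3 and can still give rise to some other blood cells, whereas DN3 cells have lost KIT and CD44 and are committed to the T lineage. At DN3 the T cell receptor beta gene is rearranged, its product pairs with the pre-T alpha chain, and signals from Notch1 and this pre-T cell receptor (pre-TCR) carry the cell forward.

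The 6 arrays separated by stage. Over the 22180 genes with a probe set of their own, DN2 arrays correlated with each other at r = 0.992 to 0.993, DN3 arrays at 0.987 to 0.992, and a DN2 with a DN3 array at 0.981 to 0.986. The median SD over genes was 0.138 in DN2 and 0.156 in DN3, on the log2 scale of the deposited signals. On that scale a difference of 1 is a 2-fold change. Background was set at the 95th percentile of the probe sets for olfactory receptors, genes that blood cells hardly express, and lay between 5.46 and 5.675 on these arrays. Where every array of the lower group fell below it, the fold is given as a lower limit.

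Between DN2 and DN3, 544 genes passed the test (limma, Benjamini-Hochberg adjusted p under 0.05), which is 2.45% of those tested. Of these, 289 were higher in DN3 (1.3%) and 255 were lower (1.15%). At least 2-fold differences were found for 143 of the higher and 122 of the lower genes. All 544 had DN2 and DN3 values without overlap, as had 3592 genes (16.2%) in all. A lack of overlap in a called gene below is thus no added evidence. For 26 of the 544 both group means were below background. With the replicate number as a block and the 6 arrays alone, 987 genes passed (4.45%), 522 higher and 465 lower, and 6 of the 544 no longer did. The p-values measure the spread between these samples, which may be partly technical. The arrays hold bulk RNA, so fewer cells of a type and less RNA per cell cannot be told apart.

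**Figure D1:**
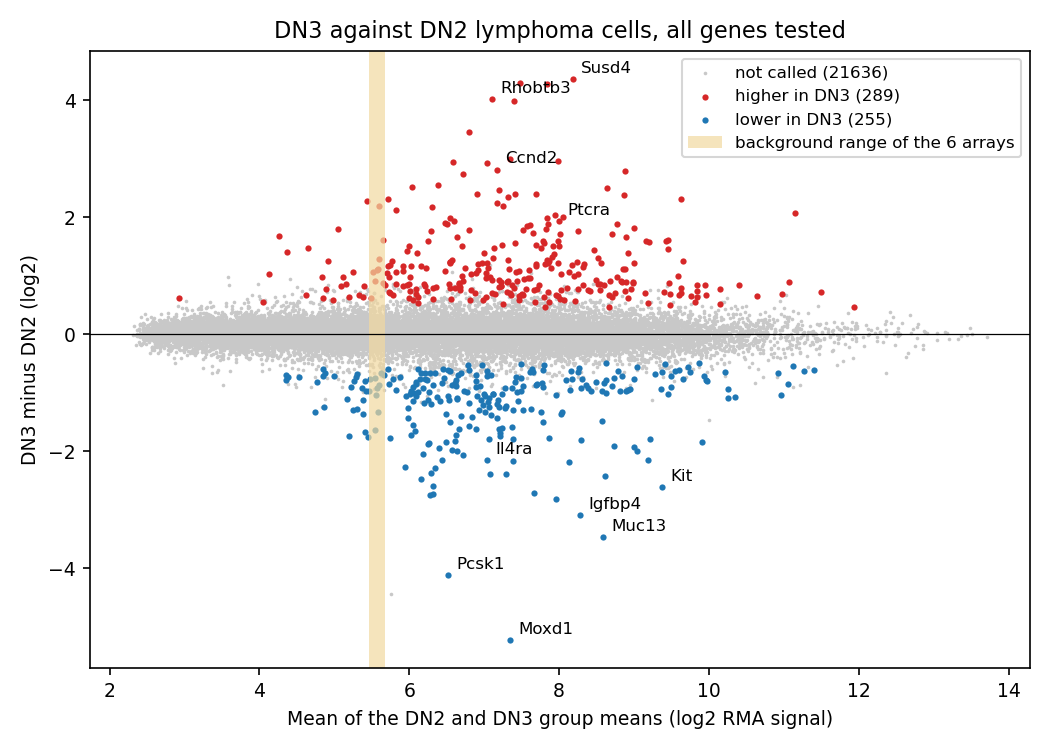
Difference between the DN3 and DN2 means (log2, y axis) against the average of both means (log2 RMA signal, x axis) for the 22180 genes, 1 point each. The 289 genes called higher in DN3 and the 255 called lower lie on both sides of 0 and span most of the signal range, and the shaded band is the background of 5.46 to 5.675.

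The markers of the sort were read to check the titles, and a difference in them is no result. Kit fell from 10.65, 10.79 and 10.59 to 8.06, 8.22 and 7.90 (log2 -2.61, SE 0.15, adjusted p = 1.07e-08). Cd44 read 6.15, 5.82 and 5.87 in DN2 and 4.64, 4.58 and 4.79 in DN3, which is below background in DN3. Il2ra, which encodes CD25, was bright in both, at 11.81, 11.86 and 11.76 in DN2 and 12.14, 11.87 and 12.05 in DN3 (log2 0.21, adjusted p = 0.964). Il7r averaged 8.64 in DN2 and 8.86 in DN3, Cd4 6.39 in DN2 and 5.93 in DN3, Cd8a 5.39 in DN2 and 5.45 in DN3, near background, and Cd8b1 8.17 in DN2 and 8.73 in DN3, and none of the 4 passed the test. Cd8b1 (adjusted p = 0.277) did pass with the replicate number as a block over the 6 arrays (0.0309) and with array weights (0.029). Cd3e, a signalling chain of the T cell receptor complex, read 12.24, 12.62 and 12.69 on the DN2 arrays and 12.80, 12.92 and 12.83 on the DN3 arrays, and it was bright in both stages.

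The 4 largest rises to DN3 among genes with an established name started at or near background in DN2. Susd4, a complement regulator, read 5.86, 6.22 and 5.92 on the DN2 arrays and 10.58, 10.33 and 10.19 on the DN3 arrays. The DN3 arrays thus stood far above the DN2 arrays, which were just above background, a 20.6-fold difference (log2 4.37, SE 0.19, adjusted p = 7.80e-10). Atp8a2, a phospholipid flippase, read 5.49, 5.94 and 5.68 in DN2 and 10.25, 9.65 and 10.005 in DN3 (log2 4.27, SE 0.22, adjusted p = 1.95e-09), and 1 of its DN2 arrays was below background. Rhobtb3 was below background on all DN2 arrays (4.96, 5.04 and 5.30) and at 8.96, 9.37 and 9.03 in DN3, at least 12.3-fold higher (adjusted p = 7.80e-10). Pde9a, a cyclic GMP phosphodiesterase, went from 5.34, 5.76 and 5.13 to 9.32, 9.54 and 9.32 (log2 3.98, SE 0.19, adjusted p = 8.17e-10). Of its DN2 arrays 2 were below background, so the size of this rise is uncertain. All 3 DN3 arrays were bright for these 4 genes.

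Ccnd2, the D-type cyclin that drives CDK4 and CDK6 in G1, read 5.62, 5.90 and 5.78 on the DN2 arrays and 8.55, 8.69 and 8.49 on the DN3 arrays (7.03-fold, log2 2.81, SE 0.15, adjusted p = 4.93e-09). The DN2 values of Ccnd2 lie near background, and no DN3 array came near them. Fbp1, a gluconeogenic phosphatase, was well above background in both and rose from 7.22, 7.49 and 7.77 to 10.31, 10.33 and 10.19 (6.88-fold, log2 2.78, SE 0.19, adjusted p = 5.75e-08). Nfib, a nuclear factor I transcription factor, rose by log2 2.999 (SE 0.23, adjusted p = 3.52e-07), with DN2 arrays at 5.90, 5.54 and 6.10 and DN3 arrays at 8.72, 8.99 and 8.82. Drd5, a dopamine receptor, rose by 2.96 and Prag1, a pseudokinase, by 2.46 (adjusted p = 1.09e-08 and 7.50e-08). The dimmer of the 2 Drd5 probe sets, near background, differed by 0.504 (adjusted p = 0.173), and their mean by 1.73. Cpe, a carboxypeptidase of prohormones, was at least 8.13-fold higher (adjusted p = 9.61e-06), Kcnn2, a calcium-activated potassium channel, at least 4.47-fold (1.96e-06), and Plk2, a p53-responsive kinase, at least 3.48-fold (1.49e-08). Klk1b27 (log2 2.95, adjusted p = 1.89e-04), Apol11b (log2 2.50, adjusted p = 6.80e-06) and Tssk5 (log2 2.40, adjusted p = 3.14e-06) complete the 15. For Klk1b27 2 of the 3 DN2 arrays were below background, so its size is uncertain. Klk1b27 and Apol11b have near-identical relatives in the mouse genome, so their probe sets may read more than 1 gene.

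The largest fall among genes with an established name was that of Moxd1, a relative of the enzyme that makes noradrenaline. It read 9.95, 9.95 and 9.98 on the DN2 arrays and 4.39, 4.92 and 4.90 on the DN3 arrays. All DN3 arrays were below background, so Moxd1 was at least 20.7-fold lower in DN3 (adjusted p = 1.09e-08). Pcsk1, a prohormone convertase, showed the same form, with 8.50, 8.53 and 8.69 in DN2 and 4.30, 4.33 and 4.74 in DN3, at least 7.93-fold lower (adjusted p = 8.87e-08). Muc13, a membrane mucin of epithelia, stayed above background and fell from 10.42, 10.46 and 10.11 to 7.13, 6.88 and 6.55 (11.1-fold, log2 -3.47, SE 0.16, adjusted p = 8.17e-10). Igfbp4, which binds insulin-like growth factors, fell from 9.84, 10.004 and 9.63 to 6.89, 6.75 and 6.57 (8.49-fold, log2 -3.09, SE 0.15, adjusted p = 1.51e-09). In these 4 genes the DN2 arrays agreed closely with one another and lay far from the DN3 arrays.

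Tgm2, a transglutaminase that cross-links proteins, read 9.27, 9.58 and 9.26 on the DN2 arrays and 6.61, 6.79 and 6.26 on the DN3 arrays (7.04-fold, log2 -2.82, SE 0.18, adjusted p = 2.91e-08). Lgals1, a secreted galectin, read 9.10, 8.59 and 9.37 in DN2 and 6.32, 6.09 and 6.52 in DN3 (6.55-fold, log2 -2.71, SE 0.25, adjusted p = 2.02e-06). S100a6, a small calcium-binding protein, was at 7.45, 7.55 and 7.87 in DN2 and below background in DN3, at least 4.09-fold lower (adjusted p = 2.56e-05). Like all leading genes, these 3 were chosen among genes without overlap of DN2 and DN3. Fmnl2, a formin that elongates actin filaments, was at least 4.2-fold lower (adjusted p = 3.22e-08), Dap, a regulator of autophagy, at least 4.27-fold (6.46e-08) and Mrc1, the mannose receptor of macrophages, at least 3.7-fold (2.34e-06). Slc15a1, a peptide transporter (log2 -2.43, adjusted p = 1.09e-08), Scmh1, a Polycomb protein (log2 -2.39, adjusted p = 6.07e-08), and Tspan6, a tetraspanin (log2 -2.38, adjusted p = 1.73e-06), fell as well. Ly6c1 was at least 3.47-fold lower (adjusted p = 3.15e-06), and its near-identical neighbour Ly6c2 fell by 2.18 (adjusted p = 2.59e-04). Their probe sets may share signal.

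**Figure D2:**
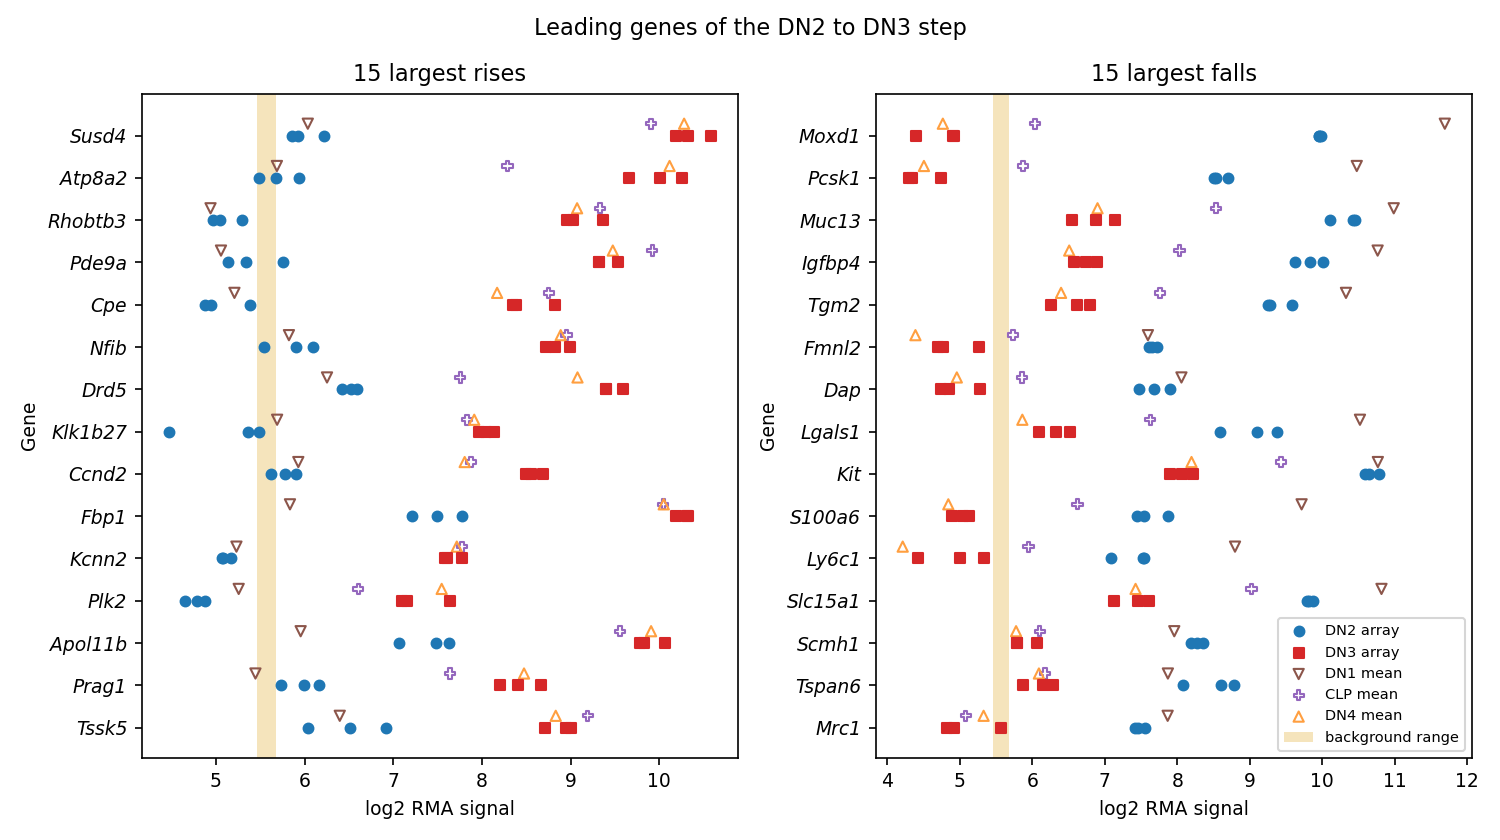
The 15 largest rises (left) and the 15 largest falls (right), with log2 RMA signal on the x axis, circles for the 3 DN2 arrays, squares for the 3 DN3 arrays and open symbols for the means of DN1, CLP and DN4. The genes were chosen among those without overlap of DN2 and DN3, and the falls include the sort marker Kit. The DN4 mean lies nearer to DN3 for all 15 genes of each panel, and the DN1 mean nearer to DN2.

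The other fractions, whose means did not enter the choice of these genes, lay on different sides of the change. The DN4 mean was nearer to the DN3 than to the DN2 mean for all 15 leading rises and all 15 leading falls. It was so for 279 of the 289 genes called higher (96.5%) and 251 of the 255 called lower (98.4%), against 53.9% of all genes. The DN1 mean was nearer to DN3 for 13 of the 289 (4.5%) and 11 of the 255 (4.31%), against 39.6% of all genes. The CLP mean was nearer to DN3 for 73.4% of the higher and 77.6% of the lower genes, against 52.5% of all. Susd4 averaged 6.04 in DN1, 9.91 in CLP and 10.28 in DN4, so the CLP fraction stood with the later stages. Moxd1 averaged 11.69 in DN1, 6.04 in CLP and 4.76 in DN4, thus highest in DN1 and low from DN3 on. Kit is 1 of the 15 leading falls, and Kit and Cd44 are among the 255 genes called lower. Both are sort markers, so the side on which another fraction lies for them is no result. The fractions share their tumours, so these shares describe the arrays and carry no test.

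The genes of the pre-TCR and of V(D)J recombination moved in both directions. Of 10 measured members, 3 rose and 1 fell (40% called, against 2.45% of all genes). Their median log2 difference was 0.16 against 0.012 over all genes. The same 2.45% stands beside the main count of every later list, and these shares are descriptions. List counts with the replicate block have another base, 4.45% of all genes over 6 arrays and 614 of 22180 genes over 15. Ptcra, which encodes the pre-T alpha chain, read 6.98, 7.02 and 7.11 on the DN2 arrays and 9.06, 8.72 and 9.14 on the DN3 arrays (3.82-fold, log2 1.93, SE 0.16, adjusted p = 9.39e-07). All 3 DN3 arrays lay above all DN2 arrays, the DN1 mean was lower still (5.84) and the DN4 mean close to DN3 (9.02). Rag2, a subunit of the recombinase, rose from 3.40, 3.67 and 3.94 to 4.85, 5.57 and 4.78 (adjusted p = 0.0018). Both its group means are below background, so no fold is given. Lig4, the ligase that seals the joins, rose (log2 0.87, SE 0.17, adjusted p = 0.00776), and its call was lost without DN3 replicate 2 (adjusted p = 0.0518). Dntt, terminal transferase, which adds bases at the joins, fell from 10.82, 10.76 and 10.84 to 9.78, 9.81 and 9.55 (2.13-fold lower, log2 -1.09, SE 0.14, adjusted p = 1.25e-04). The 3 DN2 arrays of Dntt were nearly identical and above every DN3 array. Rag1 was not measured here by a probe set of its own.

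Of 21 measured Notch receptors, modifiers and targets, 5 rose and 1 fell (28.6% called, against 2.45% of all genes, median log2 0.17). Nrarp, a feedback inhibitor that Notch itself induces, read 6.89, 6.68 and 6.31 on the DN2 arrays and 8.43, 8.71 and 8.10 on the DN3 arrays (3.45-fold, log2 1.79, SE 0.24, adjusted p = 1.51e-04). Dtx1, a Deltex ubiquitin ligase and Notch target, read 8.71, 8.87 and 8.59 in DN2 and 10.43, 10.14 and 10.000 in DN3 (2.76-fold, log2 1.46, SE 0.16, adjusted p = 1.51e-05). Heyl, a repressor of the Hey family, read 7.56, 7.90 and 7.76 in DN2 and 9.09, 9.40 and 9.08 in DN3 (2.73-fold, log2 1.45, SE 0.20, adjusted p = 2.77e-04). For Nrarp, Dtx1 and Heyl the DN2 and DN3 values did not overlap, and the DN1 means of 5.86, 7.21 and 7.02 were lower again. Trib2, a pseudokinase, rose by 1.23 (SE 0.17, adjusted p = 3.24e-04). Among the receptors, Notch4 rose from 6.90, 6.94 and 6.82 to 8.09, 7.91 and 7.88 (log2 1.07, SE 0.13, adjusted p = 7.52e-05). Notch1, the receptor that T cell fate depends on, read 10.52, 10.44 and 9.91 on the DN2 arrays and 11.001, 11.08 and 10.80 on the DN3 arrays and did not pass (log2 0.67, SE 0.24, adjusted p = 0.293). With the replicate number as a block, its adjusted p was 0.0337 over 15 arrays and 0.0117 over 6. It also passed without a block over the 6 arrays alone (0.0468) and with array weights (0.0496). Notch3 read 9.25, 9.47 and 9.09 in DN2 and 10.03, 9.88 and 9.91 in DN3 (log2 0.67, SE 0.21, adjusted p = 0.152), with 0.072 and 0.0129 under the same blocks, 0.0126 over the 6 arrays alone, 0.0324 without CLP and 0.0129 with array weights. Notch2 (log2 0.44, adjusted p = 0.479) and the target Hes1 (log2 0.13, adjusted p = 0.9998) did not pass under either block. With block and array weights together over 15 arrays, a setting chosen after the data were seen, Notch2 reached 0.0351. Igf1r, counted here as a Notch target, fell from 6.73, 6.84 and 6.69 to 6.07, 5.77 and 5.80 (log2 -0.87, SE 0.14, adjusted p = 9.98e-04). Lfng, the glycosyltransferase that tunes Notch receptors, read 7.64, 8.07 and 7.82 in DN2 and 6.99, 7.18 and 7.01 in DN3 (log2 -0.78, SE 0.21, adjusted p = 0.065), and its adjusted p was 0.00307 with the block over 6 arrays and 0.00626 over these arrays without it. It was 0.0228 without CLP and 0.00527 with array weights, and Lfng passed in 7 of 17 alternatives. Dtx4, another Deltex gene, averaged 7.64 in DN2 and 7.04 in DN3 and did not pass (log2 -0.61, SE 0.19, adjusted p = 0.17). Its adjusted p was 0.0252 with the block over 6 arrays, 0.0431 over these without it and 0.0175 with array weights. Under the block over 6 arrays the list counted 7 higher and 3 lower.

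Ptcra, Nrarp and Dtx1 rose together, and their promoters are shown for the core of the sequence bound by RBPJ, the DNA-binding partner of Notch. Each line gives the 250 bases before the gene's start on the coding strand (RefSeq, GRCm38.p6), with TGGGAA or its reverse complement TTCCCA in capitals. They lie at chr17:46763713-46763962 (minus strand) for Ptcra, chr2:25180508-25180757 (plus strand) for Nrarp and chr5:120711670-120711919 (minus strand) for Dtx1.
Ptcra: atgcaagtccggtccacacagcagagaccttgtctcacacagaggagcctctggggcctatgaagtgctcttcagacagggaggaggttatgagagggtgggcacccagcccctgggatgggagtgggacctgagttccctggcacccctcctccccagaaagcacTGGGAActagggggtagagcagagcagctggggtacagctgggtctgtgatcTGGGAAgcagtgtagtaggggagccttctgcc
Nrarp: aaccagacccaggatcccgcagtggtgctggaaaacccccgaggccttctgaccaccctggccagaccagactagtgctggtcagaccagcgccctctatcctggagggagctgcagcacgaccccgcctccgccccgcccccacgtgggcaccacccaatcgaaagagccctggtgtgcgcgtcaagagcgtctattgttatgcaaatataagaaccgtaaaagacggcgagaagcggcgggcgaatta
Dtx1: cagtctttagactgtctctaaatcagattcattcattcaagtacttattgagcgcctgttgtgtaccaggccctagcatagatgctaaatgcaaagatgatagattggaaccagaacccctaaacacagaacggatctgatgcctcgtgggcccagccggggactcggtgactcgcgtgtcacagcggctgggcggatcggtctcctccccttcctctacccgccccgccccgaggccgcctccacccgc
Ptcra holds 2 matches, which begin 84 and 32 bases before the start. Nrarp and Dtx1 hold 0 in this window, as do Trib2, Notch4 and Rag2. Lig4 has 2 starts in the table, and the window of 1 of them holds 1 match, 95 bases before the start. Of 32851 promoter windows of this length, 21.6% hold a match on either strand. A match describes letters and not a bound site.

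**Figure D3:**
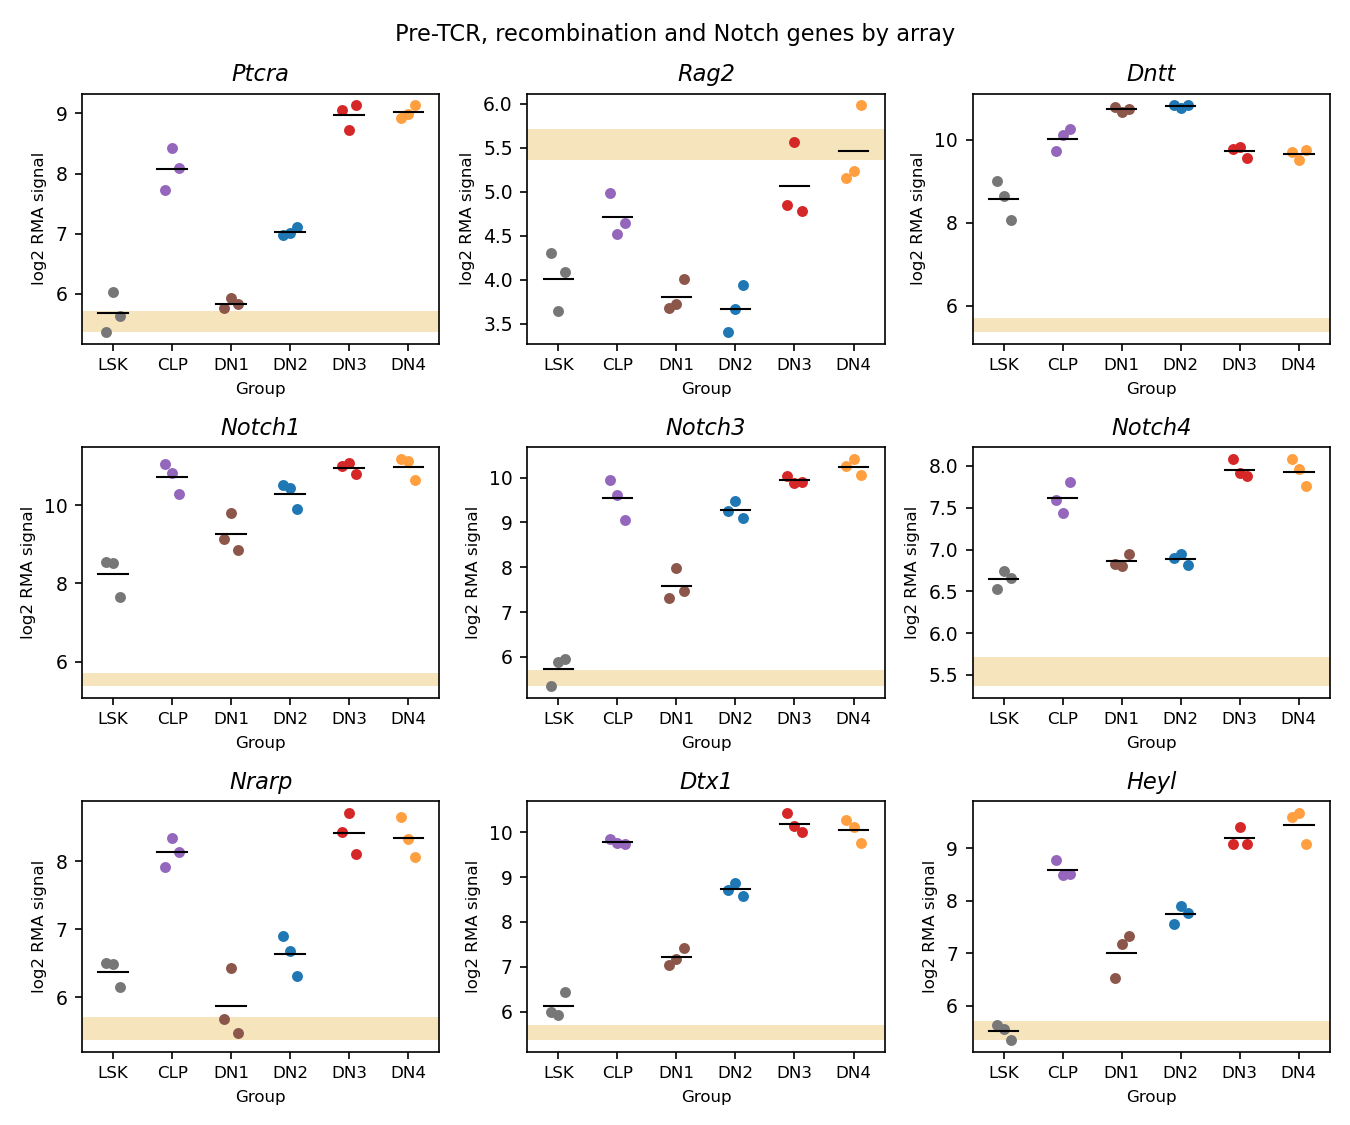
Log2 RMA signal (y axis, a scale of its own in each panel) of 9 pre-TCR, recombination and Notch genes on all 18 arrays, by group, with points for arrays and bars for means of 3. Ptcra, Nrarp, Dtx1, Heyl and Notch4 step up from DN2 to DN3, Dntt steps down, Rag2 stays below or within the shaded background band on all arrays but 1 of DN4, and Notch1 and Notch3 missed the threshold in the model of 15 arrays without the block.

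Among 21 CD3 chains and genes of T cell receptor signalling, 5 rose and 1 fell (28.6% called, against 2.45% of all genes, median log2 0.05). With the block over 6 arrays 6 were higher and 3 lower. Cd5, a surface receptor that dampens T cell receptor signals, read 8.09, 8.24 and 8.34 on the DN2 arrays and 9.73, 9.55 and 9.55 on the DN3 arrays (2.61-fold, log2 1.38, SE 0.13, adjusted p = 2.02e-06). Its relative Cd6 rose from 7.43, 7.76 and 7.54 to 8.41, 9.20 and 8.68 (log2 1.19, SE 0.22, adjusted p = 0.00443). Both genes showed no overlap between the stages. Fyn, a kinase next to the receptor, rose by 0.63 (adjusted p = 0.00525), and Rasgrp1, which activates RAS after receptor signals, by 0.76 (adjusted p = 0.0297). The call of Rasgrp1 was lost without DN2 replicate 1, 2 or 3 or DN3 replicate 2 or 3 (adjusted p = 0.0578 to 0.169). Sla2, an adaptor that restrains the receptor, rose by 0.73 (adjusted p = 0.0141), a call lost without DN2 replicate 1 or 2 or DN3 replicate 1 or 2 (adjusted p = 0.0546 to 0.0743). Prkcq, the protein kinase C of the T cell synapse, fell from 10.31, 10.31 and 10.27 to 9.56, 9.62 and 9.58 (log2 -0.71, SE 0.12, adjusted p = 0.00132). Cd3g averaged 12.32 in DN2 and 12.61 in DN3 and did not pass (log2 0.29, adjusted p = 0.674), nor did Cd3e, and Cd247 was not measured here.

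Of 20 measured T lineage transcription factors, 3 passed (15%, against 2.45% of all genes), all of them higher in DN3 (median log2 0.08). With the replicate block over 6 arrays 5 passed, again all higher. Ets2, an ETS family factor, read 6.72, 7.07 and 6.96 on the DN2 arrays and 8.70, 8.98 and 8.71 on the DN3 arrays (3.67-fold, log2 1.88, SE 0.14, adjusted p = 2.45e-07). Ikzf2, the Ikaros family member Helios, rose from 7.41, 7.42 and 7.15 to 8.35, 8.62 and 8.39 (log2 1.13, SE 0.19, adjusted p = 0.00184). Spib, an ETS factor, was called at adjusted p = 0.00349 with both means below background (4.51 in DN2 and 5.27 in DN3). Bcl11b, the factor of T cell commitment, read 9.53, 9.98 and 9.61 on the DN2 arrays and 9.40, 9.93 and 9.53 on the DN3 arrays, so the stages overlapped (log2 -0.09, SE 0.21, adjusted p = 0.9998). Gata3 averaged 8.16 in DN2 and 8.48 in DN3 (log2 0.33, adjusted p = 0.771). All 7 E proteins and ID inhibitors and all 22 stem and early progenitor regulators failed limma's test, 16 of the latter below background on all 6 arrays. At an unadjusted p under 0.05, 1 of the 7 and 1 of the 22 passed, beside 1789 of all 22180 genes.

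Cytokine receptors split by direction. Of 22 measured members, 2 rose and 3 fell (22.7% called, against 2.45% of all genes, median log2 -0.12). Il4ra, the receptor chain for interleukins 4 and 13, read 7.79, 8.48 and 8.08 on the DN2 arrays and 5.68, 6.003 and 6.23 on the DN3 arrays (4.44-fold lower, log2 -2.15, SE 0.21, adjusted p = 5.49e-06). Il21r read 7.34, 7.66 and 7.22 in DN2 and 5.72, 5.35 and 5.65 in DN3, where 2 of the 3 arrays were below background, so the size of the fall is uncertain (log2 -1.84, SE 0.15, adjusted p = 5.81e-07). The DN1 means of 9.64 and 8.52 were higher than those of DN2, and the DN4 means of 6.09 and 5.61 were close to DN3. Tgfbr3, a TGF-beta coreceptor, was at least 1.35-fold lower (adjusted p = 0.0215), a call lost without DN2 replicate 1 or 2 or DN3 replicate 1 (adjusted p = 0.071 to 0.155). Il9r rose from 7.62, 7.63 and 7.57 to 8.54, 8.84 and 8.61 (2.08-fold, log2 1.06, SE 0.14, adjusted p = 1.38e-04). Il12rb2, the inducible chain of the interleukin 12 receptor, rose from 8.13, 8.31 and 8.45 to 9.12, 9.70 and 9.39 (2.16-fold, log2 1.11, SE 0.17, adjusted p = 7.10e-04). Neither of these showed overlap. Il10ra read 5.26, 5.74 and 5.39 in DN2 and 6.14, 6.43 and 6.14 in DN3 and missed the threshold (log2 0.77, SE 0.20, adjusted p = 0.0533), which it passed with the replicate block at 0.0122 over 15 arrays and 0.00308 over 6, and over the 6 arrays without it at 0.0117. Without CLP it was at 0.0159 and with array weights at 0.00585, and Il10ra passed in 9 of 17 alternatives. With the block the list counted 4 higher and 5 lower over 6 arrays, and 4 higher and 3 lower over 15. Il7r and Il2ra, named above as sort markers, did not pass.

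Of 31 measured genes linked to NPM-ALK and its effector STAT3, 1 rose and 5 fell (19.4%, against 2.45% of all genes, median log2 -0.09). Icos, a costimulatory receptor, rose from 4.72, 5.33 and 5.61 to 7.41, 7.60 and 7.18 (log2 2.18, SE 0.25, adjusted p = 2.96e-05), with 2 of the 3 DN2 arrays below background, so the size of the rise is uncertain. Socs1, which inhibits JAK kinases and is induced by STAT signals, read 8.32, 8.17 and 8.23 on the DN2 arrays and 7.32, 7.35 and 7.36 on the DN3 arrays (1.86-fold lower, log2 -0.89, SE 0.14, adjusted p = 7.10e-04). The 3 DN3 arrays of Socs1 lay close together and below all DN2 arrays. Bcl3, a nuclear IkB protein, read 7.68, 8.11 and 7.53 in DN2 and 6.91, 6.46 and 6.35 in DN3 (log2 -1.20, SE 0.26, adjusted p = 0.0146), and its call was lost without DN2 replicate 2 or DN3 replicate 2 or 3 (adjusted p = 0.0656 to 0.11). Bcl6, a transcriptional repressor, read 7.41, 7.55 and 7.21 in DN2 and 6.41, 6.88 and 6.23 in DN3 (log2 -0.89, SE 0.20, adjusted p = 0.0194), a call lost without DN2 replicate 1 or 2 or DN3 replicate 1 or 3 (adjusted p = 0.0804 to 0.128). Junb, an AP-1 subunit that NPM-ALK is known to induce, read 10.03, 9.98 and 10.10 in DN2 and 9.27, 9.50 and 9.01 in DN3 (log2 -0.77, SE 0.19, adjusted p = 0.0417), a call lost without DN2 replicate 1, 2 or 3 or DN3 replicate 1 or 3 (adjusted p = 0.115 to 0.232). The fifth, Pim1, a survival kinase, fell by 0.50 (adjusted p = 0.0478). The call of Pim1 was lost without DN2 replicate 1, 2 or 3 or DN3 replicate 1, 2 or 3 (adjusted p = 0.0792 to 0.274), and its adjusted p was 0.0583 with the replicate block over 15 arrays and 0.978 with the mean of its 2 probe sets, of which the dimmer is below background. With a trended and robust prior the adjusted p of Pim1 was 0.087.

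The genes named next are tied to ALCL and did not pass. Tnfrsf8, which encodes CD30, read 10.56, 10.57 and 10.28 on the DN2 arrays and 10.35, 10.50 and 10.11 on the DN3 arrays, with overlapping stages (log2 -0.15, SE 0.18, adjusted p = 0.9998). Stat3 averaged 10.99 in DN2 and 10.66 in DN3 (log2 -0.33, adjusted p = 0.661), and Pdgfrb, a growth factor receptor linked to this lymphoma, 12.54 in DN2 and 12.50 in DN3 (log2 -0.03, adjusted p = 0.9998). Irf4, a factor that ALCL cells depend on, read 6.41, 6.58 and 6.47 in DN2 and 7.40, 8.20 and 7.40 in DN3 (log2 1.18, SE 0.33, adjusted p = 0.0882), without overlap, and its adjusted p was 0.00107 with the block over 6 arrays, 0.00388 over these without it and 0.115 with the block over 15. It was 6.67e-04 without CLP and 0.00416 with array weights, and Irf4 passed in 5 of 17 alternatives. Jun read 10.93, 11.20 and 11.15 in DN2 and 10.48, 10.51 and 10.11 in DN3 (log2 -0.72, adjusted p = 0.0913), and Fos 7.97, 7.89 and 7.74 in DN2 and 7.59, 7.34 and 7.19 in DN3 (log2 -0.49, adjusted p = 0.157). With the blocks, Jun reached 0.04 over 15 arrays and 0.0125 over 6 (0.0133 over 6 without the block), and Fos 0.0223 and 0.0401. Jun was at 0.0387 without CLP and 0.00846 with array weights. Jun passed in 6 and Fos in 3 of 17 alternatives. Under the block over 6 arrays the list counted 3 higher and 8 lower.

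**Figure D4:**
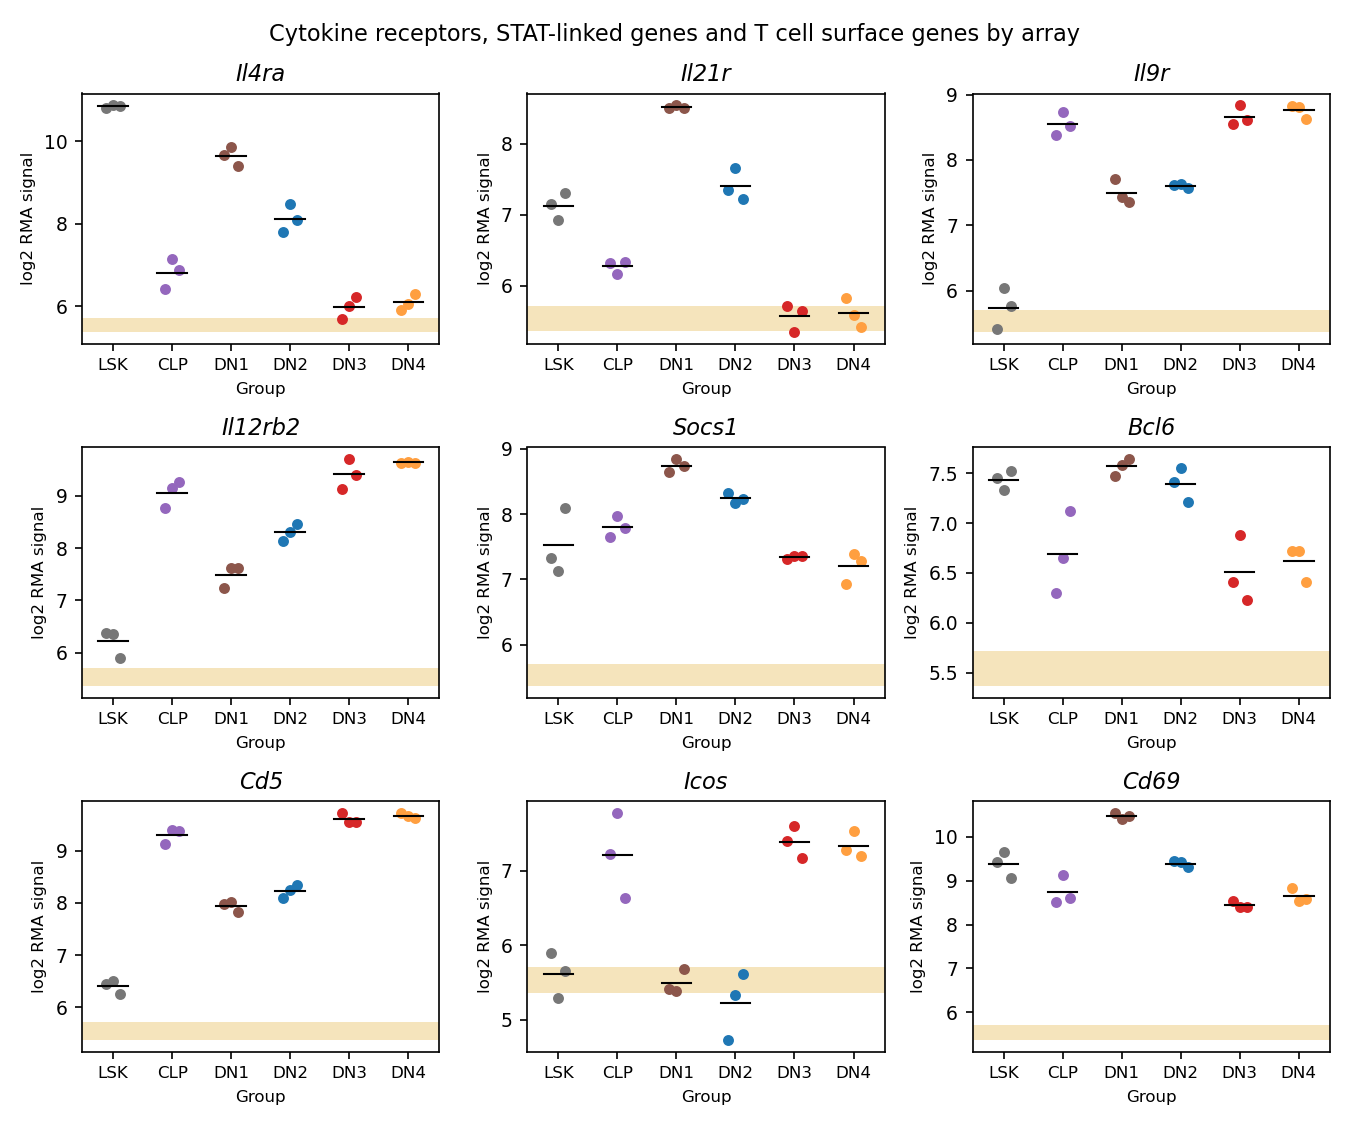
Log2 RMA signal (y axis, a scale of its own in each panel) of 9 cytokine receptor, STAT-linked and T cell surface genes on all 18 arrays, by group, with points for arrays and bars for means of 3. Il4ra, Il21r, Socs1, Bcl6 and Cd69 are lower in DN3 than in DN2, and Il9r, Il12rb2, Cd5 and Icos are higher. The 2 stages overlap in none of the 9 panels, as in every called gene.

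The cell cycle lists were read against the 2.45% called among all genes. None of 22 S phase genes and none of 23 genes of G2 and mitosis passed in limma, with medians of 0.11 and -0.18, and 0 and 3 members had an unadjusted p under 0.05. Mki67, a marker of cycling cells, read 10.50, 10.77 and 10.71 on the DN2 arrays and 10.24, 10.18 and 10.39 on the DN3 arrays (log2 -0.39, SE 0.13, adjusted p = 0.229), with every DN3 array below every DN2 array. Top2a, the topoisomerase of dividing cells, read 9.18, 9.34 and 9.21 in DN2 and 8.71, 9.09 and 8.65 in DN3 (log2 -0.43, adjusted p = 0.312). With array weights Mki67 (adjusted p = 0.0468) and Top2a (0.0283) passed as lower in DN3. Among 16 G1 genes 2 passed (12.5%, median -0.10). With the block over 6 arrays 1 G1 gene was higher and 2 were lower. Ccnd2 rose, as given above, and Cdk6, its kinase partner, fell from 11.57, 11.66 and 11.53 to 10.999, 11.12 and 10.76 (log2 -0.63, SE 0.15, adjusted p = 0.0327). The call of Cdk6 was lost without DN2 replicate 1, 2 or 3 or DN3 replicate 1 or 3 (adjusted p = 0.0891 to 0.192) and with quantile normalization (adjusted p = 0.079). None of 19 MYC targets and genes of ribosome biogenesis passed in limma (median -0.07), and 0 had an unadjusted p under 0.05.

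Of 17 p53 target genes, 1 rose and 2 fell (17.6% called, against 2.45% of all genes, median log2 -0.09). Plk2 is the one that rose. Fas, the death receptor, read 7.60, 7.48 and 7.44 on the DN2 arrays and 6.52, 6.48 and 6.46 on the DN3 arrays (2.03-fold lower, log2 -1.02, SE 0.24, adjusted p = 0.0257). The call of Fas was lost without DN2 replicate 1, 2 or 3 or DN3 replicate 1, 2 or 3 (adjusted p = 0.0757 to 0.122). Pmaip1, which encodes the BCL2 antagonist NOXA, fell from 7.10, 6.92 and 6.97 to 5.94, 6.02 and 6.45 (log2 -0.86, SE 0.20, adjusted p = 0.0275), a call lost without DN2 replicate 1, 2 or 3 or DN3 replicate 1 or 2 (adjusted p = 0.0782 to 0.166). Among 14 BCL2 family genes Bid, which links death receptors to mitochondria, rose by 0.68 (SE 0.13, adjusted p = 0.00636), and Pmaip1 was the 1 that fell (median 0.01).

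Immune recognition genes changed singly. Of 10 MHC class II genes, 2 rose and 1 fell (30% called, against 2.45% of all genes, median log2 -0.14). H2-Ab1, a beta chain of the class II molecule, read 7.99, 8.07 and 8.21 on the DN2 arrays and 6.30, 6.30 and 6.45 on the DN3 arrays (3.34-fold lower, log2 -1.74, SE 0.24, adjusted p = 2.54e-04). H2-Eb2 rose from 5.14, 5.79 and 5.44 to 7.11, 7.15 and 6.90 (log2 1.59, SE 0.27, adjusted p = 0.00208), with 2 DN2 arrays below background, and it resembles other class II beta genes in sequence. H2-Oa, a chain of the peptide-loading modulator, rose by 0.89 (adjusted p = 0.00909), a call lost without DN2 replicate 1 or DN3 replicate 2 (adjusted p = 0.0565 to 0.06). Of 10 listed class I and related genes only Nlrc5, the activator of class I transcription, passed (log2 -0.98, SE 0.20, adjusted p = 0.00842), and not without DN2 replicate 2 or DN3 replicate 3 (adjusted p = 0.0522 to 0.062). Outside the list, H2-T10 (log2 1.16) and H2-Q5 (log2 -1.03) passed too, H2-Q5 not in every alternative. Of 17 interferon response genes, 1 rose and 2 fell (17.6% called, against 2.45% of all genes, median 0.04). Ifitm3, an antiviral membrane protein, read 10.07, 9.89 and 10.17 on the DN2 arrays and 8.06, 7.87 and 8.18 on the DN3 arrays (4.01-fold lower, log2 -2.004, SE 0.17, adjusted p = 8.66e-07). Ifi204, a DNA sensor of a family with near copies, rose from 7.90, 8.13 and 8.23 to 9.87, 10.18 and 9.67 (log2 1.82, SE 0.25, adjusted p = 2.07e-04). Oas2 fell by 0.85 (adjusted p = 0.0284), a call lost without DN2 replicate 2 or 3 or DN3 replicate 1, 2 or 3 (adjusted p = 0.0593 to 0.189). With the block over 6 arrays the list counted 3 higher and 3 lower.

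Of 24 costimulation and checkpoint receptors, 3 rose and 1 fell (16.7% called, against 2.45% of all genes, median log2 0.05). Beside Icos, Btla, an inhibitory receptor, rose from 6.13, 6.34 and 6.50 to 7.52, 7.57 and 7.45 (log2 1.19, SE 0.18, adjusted p = 6.72e-04). Slamf6, a SLAM family receptor, rose by 0.72 (adjusted p = 0.00209), a call lost with all 18 arrays in the model (0.462). Cd69, an early activation antigen that retains thymocytes in the thymus, read 9.45, 9.42 and 9.30 on the DN2 arrays and 8.53, 8.41 and 8.39 on the DN3 arrays (1.93-fold lower, log2 -0.95, SE 0.15, adjusted p = 9.98e-04). Cd28 read 7.15, 7.15 and 7.11 in DN2 and 7.80, 7.61 and 7.78 in DN3 (log2 0.59, adjusted p = 0.0728), and 0.0163 with the block over 6 arrays and 0.0133 over these without it. It was 0.00553 without CLP and 0.00204 with array weights, and Cd28 passed in 5 of 17 alternatives. Under the block over 6 arrays the list counted 5 higher and 2 lower, and under the block over 15 arrays 3 higher and 2 lower. Of 22 chemokine receptors and homing genes, 2 passed, both lower (9.09%, against 2.45% of all genes, median -0.04). Itgb7 fell from 7.46, 7.35 and 7.48 to 6.53, 6.45 and 6.17 (2.07-fold, log2 -1.05, SE 0.16, adjusted p = 7.10e-04) and its partner Itga4 by 0.62 (adjusted p = 0.00821). The 2 chains form the gut-homing integrin. The call of Itga4 was lost without DN3 replicate 1 (adjusted p = 0.0557). With the block over 6 arrays 1 homing gene was higher and 3 were lower.

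Of 20 immediate early genes of the AP-1, EGR and NR4A families, 1 rose and 2 fell (median log2 -0.09). Egr1, induced by receptor signals, rose from 5.63, 5.87 and 5.73 to 6.49, 6.49 and 6.33 (log2 0.69, SE 0.16, adjusted p = 0.0246), close to background in DN2, and its call was lost without DN2 replicate 1 or 3 or DN3 replicate 1, 2 or 3 (adjusted p = 0.0514 to 0.139). Klf6, a zinc finger factor, fell by 0.62 (adjusted p = 0.0204), a call lost without DN2 replicate 2 or 3 or DN3 replicate 1 or 3 (adjusted p = 0.0583 to 0.149). The other fall was that of Junb. With the block the list counted 3 higher and 4 lower over 6 arrays, and 1 higher and 4 lower over 15. Of 19 glycolysis and hypoxia genes 2 passed, both higher (median 0.04), which were Fbp1 and Slc2a3, a glucose transporter (log2 0.73, SE 0.16, adjusted p = 0.0144), whose call was lost without DN2 replicate 1 or DN3 replicate 1 or 2 (adjusted p = 0.0578 to 0.114).

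Markers of other cells were in part below background and in part above it. Above background on all 6 arrays were 5 of 16 macrophage, 2 of 16 granulocyte and 8 of 24 NK list members. The same held for 6 of 17 stroma, 6 of 13 dendritic, 4 of 15 B cell and 3 of 10 erythroid list members. Of 16 macrophage and monocyte markers, 2 passed, Mrc1 and Ly6c2, both lower in DN3 (median log2 -0.06). The summed linear signal of all 16, with Mrc1 and Ly6c2 included, ran from 1623 to 1992 in DN2 and from 1147 to 1204 in DN3. Adgre1, Cd14, Lyz2, Mertk, Fcgr1, C1qc, Vcam1 and Marco, 8 of the 16, were below background on all 6 arrays. Of 16 granulocyte and mast cell markers only Cpa3, a mast cell protease that early progenitors also express, rose (log2 1.20, SE 0.28, adjusted p = 0.0279), and its call was lost without DN2 replicate 1 or 2 or DN3 replicate 1, 2 or 3 (adjusted p = 0.0511 to 0.192). The sum was 580 to 707 in DN2 and 725 to 903 in DN3, and 11 of the 16, with Mpo and S100a8 among them, were below background throughout. Of 24 NK, innate and cytotoxic genes, Nkg7 rose (log2 0.68, adjusted p = 0.0235), a call lost without DN2 replicate 1, 2 or 3 or DN3 replicate 2 or 3 (adjusted p = 0.0775 to 0.115), and Gzmb was called lower with both means below background. The sums ranged from 4063 to 5538 in DN2 and from 3906 to 4829 in DN3, and 14 of the 24 were below background on all 6 arrays. With the block over 6 arrays 1 was higher and 3 were lower.

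Of 17 markers of stroma and thymic epithelium, Vim, the intermediate filament vimentin, fell from 10.14, 10.34 and 10.31 to 7.75, 8.44 and 8.13 (4.46-fold, log2 -2.16, SE 0.19, adjusted p = 1.21e-06). A dimmer Vim probe set, above background at a mean of 6.84, differed by log2 -0.338 (adjusted p = 0.707), and the mean of both by -1.25. Col1a2 rose by 1.22 (adjusted p = 5.42e-05). The list summed to 8141 to 9530 in DN2 and 6967 to 8382 in DN3, and 10 of the 17 were below background throughout, including Pdgfra, Epcam and Foxn1. Vimentin is also made by lymphoid cells. Of 13 dendritic cell markers Ly6d, which marks lymphoid progenitors as well, rose from 5.63, 5.64 and 6.18 to 7.40, 7.90 and 7.11 (log2 1.66, SE 0.20, adjusted p = 6.26e-05). That list summed to 2272 to 2678 in DN2 and 2500 to 2702 in DN3, with Itgax, Flt3 and Xcr1 below background, and with the block over 6 arrays 1 was higher and 1 lower. Among 14 genes of gamma-delta and double-positive thymocytes, 2 rose (Slamf6 and Blk) and Cd69 fell, and with the block over 6 arrays 4 were higher and 1 lower. Blk, a kinase of B and gamma-delta T cells, averaged 5.55 in DN2 and 6.39 in DN3 (log2 0.84, adjusted p = 0.0123), and its call was lost without DN2 replicate 1 or 3 or DN3 replicate 2 (adjusted p = 0.0656 to 0.0676) and with all 18 arrays (0.106). None of 15 B cell and plasma cell markers and none of 10 erythroid and megakaryocyte markers passed in limma, 3 and 0 of them had an unadjusted p under 0.05, and 9 of the 15 and 4 of the 10 were below background on all 6 arrays. With the block over 6 arrays 1 B cell marker of the list was lower. Outside the B cell list, Pou2af1 (log2 1.51) and the immunoglobulin gene Ighm (log2 0.885) passed and were higher in DN3, Ighm not in every alternative. The dimmer Ighm probe sets did not pass, and most of them had the opposite sign. The part of other cells in the results above was not tested.

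**Figure D5:**
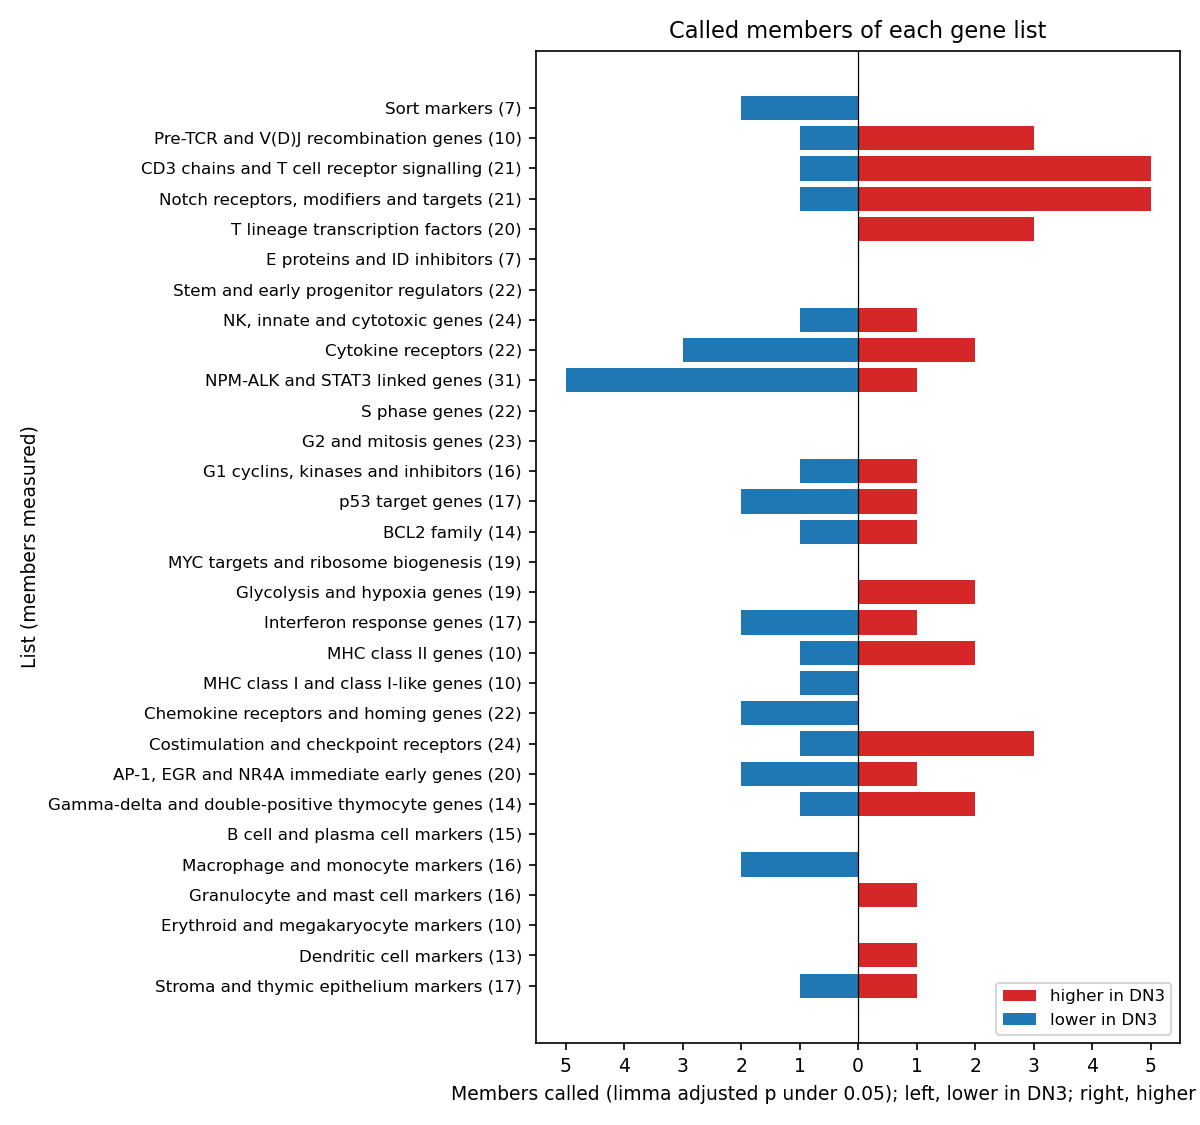
Number of members of each of the 30 gene lists that were called (limma adjusted p under 0.05), lower in DN3 to the left and higher to the right, with the number of measured members in brackets. The CD3 and T cell receptor list and the Notch list have the most rises, 5 each, the NPM-ALK and STAT3 list has the most falls, 5, and the S phase list and the G2 and mitosis list have none.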

How the data were processed

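RNA of sorted cells was extracted with a micro-scale column kit, amplified and hybridized to Affymetrix arrays, per the labels' protocols. The deposited values are log2 signals, 1 per probe set, which the authors made with oligo and RMA, per the submitters' processing notes. Their versions and the genome build are not given in the sources used here. The values were used as deposited. Of 41345 probe sets, 23521 carry 1 gene symbol in the platform annotation, and the brightest of each gene by the mean over 18 arrays left 22180 genes. The other probe sets were left out.

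DN3 was contrasted with DN2 in a limma 3.58.1 fit of the 15 lymphoma arrays (lmFit, eBayes, two-sided p-values, adjusted over all 22180 genes by Benjamini-Hochberg), and every adjusted p of the text is from it unless another setting is named. SE is limma's standard error. The code was tested on simulated data, in which more calls were false when the spread of a gene differed between groups than when it was shared, so the share of false calls may exceed the nominal level where spreads differ. The precision is limited by the number of arrays, 3 a group.

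The members, the 30 gene lists and the tests were chosen with earlier results of these data known. The genes named are the 15 largest rises and the 15 largest falls whose groups do not overlap and whose higher mean is above background, without predicted, clone-named, small RNA, olfactory or receptor segment genes, then the sort markers and up to 4 called members of each list per direction. Trib2, Rasgrp1, Pim1, Fyn, H2-T10, H2-Q5, Pou2af1, Ighm and genes named without a call were chosen after their values were seen. The number of lymphomas and the replicate numbers of the labels point to paired arrays. Deviations from the group means correlated at r = 0.139, 0.259 and 0.161 for equal numbers, all above 0.1, and at -0.226 to 0.0552 for unequal ones. The fit with the number as a block is therefore given beside a result where it changes a call or moves a count by over 1.5 times. The alternatives were other sets of arrays, this block, a low-signal filter (3 or more arrays above their median), averaged probe sets, quantile normalization, array weights, a trended and robust prior, and leaving out each DN2 or DN3 array.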

Additional observations from a re-analysis of the deposited data

How the results depend on the processing

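The 544 calls came to 804 with the 6 arrays alone, 794 without CLP, 555 with all 18 arrays, 614 with the replicate block over 15 arrays, 568 of 12548 genes after the filter, 526 with quantile normalization, 526 with the mean of probe sets and 514 with the trended prior. It moved by over 1.5 times with the replicate block over 6 arrays (987, of which 522 higher and 465 lower), with array weights (1093, 574 and 519) and with both block and weights over 15 arrays (1332, 695 and 637), the last chosen after the data were seen. Without 1 array it was 373 to 448 (193 to 222 higher, 171 to 229 lower). In all, 300 of the 544 passed in every alternative that tested them, and the blocks lost 9 (15 arrays) and 6 (6 arrays). Of the 88 named or listed called genes, 66 kept their call throughout. With the mean of probe sets 1 of the 544 changed sign, and it is no gene named above. The named genes that changed sign were not called. Leaving out 1 array gave Hes1 values of -0.018 (without DN3 replicate 2) to 0.247, Cd8a -0.078 (DN3 replicate 1) to 0.193, with -0.00594 without DN2 replicate 1, Pdgfrb -0.115 to 0.059 (DN2 replicate 2), with 0.053 without DN3 replicate 3, and Bcl11b -0.244 to 0.048 (DN2 replicate 2), with 0.020 without DN3 replicate 1. Pdgfrb was at 0.019 with quantile normalization. The cause was not tested. Under the block over 15 arrays Pim1 was the named gene that lost its call. Low signal limits genes near background, among which 109 called genes had their lower group below it on every array of that group.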

Other observations

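Several gene families were looked at after their members had been seen among the called genes, so their counts are descriptions. Among all genes 2.45% were called. With the replicate block the base was 4.45% over 6 arrays and 614 of 22180 genes over 15. Of 35 ligands, receptors and SMADs of the TGF-beta and BMP pathways, 3 rose and 3 fell to DN3, with a median log2 difference of 0.02. Bmpr2, a type 2 BMP receptor, read 7.18, 7.40 and 7.55 on the DN2 arrays and 9.26, 9.02 and 9.13 on the DN3 arrays (log2 1.76, SE 0.20, adjusted p = 2.50e-05), and Smad3, a transducer of TGF-beta signals, read 6.45, 6.81 and 6.65 in DN2 and 8.11, 8.41 and 8.07 in DN3 (log2 1.56, SE 0.24, adjusted p = 5.92e-04). Tgfb3, a ligand, was below background on all DN3 arrays and at least 2.8-fold lower (4.65, 4.87 and 4.91 against 6.66, 7.52 and 7.04 in DN2, adjusted p = 9.50e-06), and Eng, the coreceptor endoglin, fell by 1.36 (adjusted p = 1.43e-05). The other pair was Tgfbr3, described above, and Bmp8b, whose means are below background. In each of Bmpr2, Smad3, Tgfb3 and Eng the stages did not overlap.

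Among 25 WNT pathway and feedback genes, 3 passed, all higher (median log2 0.02). With the block over 6 arrays 3 were higher and 1 was lower. Axin2, a scaffold of the beta-catenin destruction complex that WNT signals induce, read 7.12, 7.42 and 7.21 on the DN2 arrays and 8.68, 8.56 and 8.24 on the DN3 arrays (log2 1.24, SE 0.15, adjusted p = 4.27e-05). Nkd1, another feedback inhibitor, read 7.25, 7.65 and 7.22 in DN2 and 8.75, 8.89 and 8.11 in DN3 (log2 1.21, SE 0.21, adjusted p = 0.00272), and Tnfrsf19, a TNF receptor family member, 7.26, 7.31 and 6.99 in DN2 and 8.80, 8.98 and 8.55 in DN3 (log2 1.59, SE 0.20, adjusted p = 8.00e-05). The DN4 means of these 3, 8.39, 8.64 and 8.85, were close to DN3.

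Of 17 genes of the insulin-like growth factor axis, 2 rose and 3 fell (median log2 0.06). Igf2, a growth factor, fell from 7.19, 7.29 and 7.39 to 5.83, 5.81 and 5.73 (log2 -1.50, SE 0.16, adjusted p = 9.50e-06), beside Igfbp4 and Igf1r. Irs1, the adaptor of the insulin and IGF1 receptors, rose from 7.03, 7.60 and 7.10 to 8.67, 8.96 and 8.65 (log2 1.52, SE 0.17, adjusted p = 1.84e-05), and Igfbpl1 rose by 0.83 (adjusted p = 0.00542). Of 4 NAIP genes, sensors of bacterial proteins in the inflammasome, Naip5 rose by 1.79 and Naip6 by 1.85 (adjusted p = 7.74e-05 and 0.00726). The call of Naip6 was lost without DN2 replicate 1 (adjusted p = 0.0534), and the near-identical copies may share signal. Of 20 S100 genes 2 fell, S100a6 and S100a10, of 11 annexins Anxa2 fell (log2 -1.33, SE 0.19, adjusted p = 2.59e-04), and of 8 galectins Lgals1 fell. S100a10, the partner of annexin A2, averaged 7.27 in DN2 and 6.29 in DN3 (adjusted p = 0.0256), and its call was lost without any 1 of 5 of the 6 arrays, with the highest adjusted p at 0.165. Of 24 integrin chains, 1 rose and 3 fell, Itga2 among them (log2 -1.13, SE 0.14, adjusted p = 1.06e-04). Of 7 chains of the interleukin 10 and 17 receptors 2 fell, Il10rb (log2 -1.09, SE 0.20, adjusted p = 0.00339) and Il17ra (log2 -0.62, SE 0.14, adjusted p = 0.0204), the latter call lost without any 1 of 4 arrays, with the highest adjusted p at 0.155. With the replicate block 2 of these chains were higher and 2 lower, over 6 arrays as over 15. With the block over 6 arrays, 4 S100 genes were lower, and annexins and galectins each had 1 higher and 1 lower. Galectins had the same counts with the block over 15 arrays.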
